A study of Rattus norvegicus with 18 samples.

Results

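The circadian clock genes described here are Per1, Per2, Per3, Cry1, Cry2, Nr1d1, Nr1d2, Dbp, Tef and Clock, 10 of the 25678 genes in the deposited table of reads. They were taken from the table by symbol, from a list drawn up with earlier results of these data known. All 10 were found and had enough reads to be tested. Messenger RNA was sequenced from rat dorsal root ganglia, which lie beside the spinal cord and contain sensory neuron cell bodies with their satellite glia, Schwann cells, vessels and immune cells. The study concerns Shentong Zhuyu decoction, a traditional herbal preparation, in rats with neuropathic pain. The 18 libraries form 6 groups of 3. The Ctrl group has disease state Ctrl and treatment Ctrl, and the Ctrl_solvent group has disease state Ctrl and received solvent. The Sham_solvent and Sham_herb groups share the disease state Sham and received solvent or herb. The NPP_solvent and NPP_herb groups share the disease state NPP and received solvent or herb. The sources used here give no strain, age, sex or dose, no account of how the model was made, and no hour of the day at which tissue was taken. Whether the 3 libraries of each group are 3 animals is not stated either. A p-value here therefore reflects the spread between libraries, some of which, or outside Ctrl all of which, may be technical. In Ctrl, the reads of a Y-linked gene given below set replicate 1 apart from the others, so those 3 libraries do not all come from the same animal.

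The clock is a feedback loop of transcription. CLOCK, or its relative NPAS2, pairs with BMAL1 and switches on genes that carry an E-box, among them the Per and Cry genes, whose proteins then hold the pair back, and Nr1d1 and Nr1d2, which encode the nuclear receptors REV-ERB alpha and beta that repress Bmal1 through ROR elements. Dbp and Tef encode PAR bZIP transcription factors that bind D-boxes and pass the rhythm on to other genes. In a tissue with a running clock, Bmal1 and Npas2 transcripts peak roughly opposite in the day to those of Dbp and Nr1d1, with Per2 and Cry1 peaking after Nr1d1. Bmal1, listed in the table under its older symbol Arntl, is the partner that the 10 genes are set against below.

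The promoters of 4 clock genes are shown because they hold the letters of the elements just named, and because these 4 genes enter the comparisons below. Each is the 250 bases before the annotated start in RefSeq on build GRCr8, 5′ to 3′ on the gene's strand, with matches in capitals. Per2 (chr9:99496994-99497243, minus strand) holds the E-box variant CACGTT and the D-box TTATGTAA. Tef (chr7:115206577-115206826, plus strand) holds the E-box CACGTG. Bmal1 (chr1:176766078-176766327, plus strand) holds the ROR element core TAGGTCA. Ciart (chr2:186112247-186112496, minus strand), which encodes a further repressor of the loop and is not among the 10, holds the E-box CACGTG in 3 places.
Per2: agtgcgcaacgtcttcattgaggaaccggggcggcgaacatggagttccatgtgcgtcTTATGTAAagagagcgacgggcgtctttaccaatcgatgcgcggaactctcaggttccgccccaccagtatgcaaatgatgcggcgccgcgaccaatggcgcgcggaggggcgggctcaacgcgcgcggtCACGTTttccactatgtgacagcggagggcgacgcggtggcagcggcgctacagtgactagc
Tef: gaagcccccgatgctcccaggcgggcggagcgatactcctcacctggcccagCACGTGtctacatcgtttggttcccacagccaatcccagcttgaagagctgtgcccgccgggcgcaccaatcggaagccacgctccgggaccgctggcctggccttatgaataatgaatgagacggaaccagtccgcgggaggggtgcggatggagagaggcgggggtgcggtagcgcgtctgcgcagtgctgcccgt
Bmal1: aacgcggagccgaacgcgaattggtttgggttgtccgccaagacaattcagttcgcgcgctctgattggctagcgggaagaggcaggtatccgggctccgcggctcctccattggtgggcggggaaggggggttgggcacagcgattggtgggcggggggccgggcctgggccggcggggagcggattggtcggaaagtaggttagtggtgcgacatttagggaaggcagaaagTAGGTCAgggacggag
Ciart: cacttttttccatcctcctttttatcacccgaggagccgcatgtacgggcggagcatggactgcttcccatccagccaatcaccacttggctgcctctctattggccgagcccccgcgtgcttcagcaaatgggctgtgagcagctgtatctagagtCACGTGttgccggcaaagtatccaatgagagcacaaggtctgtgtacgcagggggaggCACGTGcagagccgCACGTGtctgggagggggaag

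The letters searched, on both strands, were the E-box CACGTG, its variant CACGTT, a D-box in either of the forms TTATGTAA and TTACGTAA, and an ROR core spelled TAGGTCA or, with a different second base, TGGGTCA. None of these motifs contains another. RefSeq promoters were matched for 9 of the 10 genes, at 11 starts, and 4 of the 9 held at least 1 match. In Per2 the CACGTT lies 62 to 57 bases before the start and the D-box 192 to 185 bases before it. The Tef E-box lies 198 to 193 bases before the start. Nr1d1 has 2 annotated starts, with CACGTG 191 to 186 bases before the first and CACGTT 174 to 169 bases before the second. Cry2 holds CACGTT 212 to 207 bases before its start. The ROR core of Bmal1 lies 16 to 10 bases before its start, and the E-boxes of Ciart lie 93 to 88, 35 to 30 and 21 to 16 bases before its start. Among 33469 RefSeq promoter windows of this length, CACGTG was found in 5.59%, CACGTT in 4.07%, a D-box in 0.932% and an ROR core in 5.62%. No match was found in the windows of Per1, Per3, Nr1d2, Dbp and Clock, which says only that these letters are not there. A match is a description of the letters and not a measured binding site.

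Library depth, in units of 1000000 reads, ran from 18.2 to 50.3 with a median of 28.4. In bulk tissue, fewer cells of a type and less RNA per cell cannot be told apart. Sensory neuron markers were abundant in every library, with a summed level of 20456 to 29401 CPM over 13 genes, where CPM is the reads of a gene per 1000000 reads of its library after scaling. Reads of the Y-linked Eif2s3y numbered 3006, 1 and 0 in Ctrl replicates 1, 2 and 3 and 2180 to 6568 in the other 15 libraries, so the tests of Nr1d1, Cry1 and Per2 that involve Ctrl, and the relations of Dbp with Bmal1 and of Nr1d1 with Cry1, are also given without Ctrl replicates 2 and 3.

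Compared per length, as mean FPKM over the 18 libraries, the outputs Dbp and Tef, the repressor Cry2 and the 2 REV-ERB genes stood highest, and Per2 and Per3 lowest. Dbp had 16.7 FPKM, Cry2 15.02, Tef 11.7, Nr1d2 9.52 and Nr1d1 8.95. Per1 had 2.22 FPKM, Clock 2.11, Cry1 2.01, Per2 0.97 and Per3 0.558. The loop partner Bmal1 had 1.97 FPKM, close to Clock. All further levels are in CPM and are compared between libraries for 1 gene at a time.

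How far a gene moved between libraries differed widely within the family. On log2 CPM, the SD over the 18 libraries was 0.73 for Per2, 0.69 for Dbp, 0.65 for Per3, 0.47 for Per1, 0.39 for Nr1d1 and 0.38 for Cry1. It was 0.21 for Tef, 0.19 for Nr1d2, 0.19 for Clock and 0.11 for Cry2, against a median of 0.25 over all tested genes. The core transcript Clock and the repressor Cry2 thus had the smallest spreads with Nr1d2 and Tef, and the Period gene Per2 and the output Dbp the largest. Set among the 1000 genes nearest in mean level, the SD of Dbp lay at percentile 98.9, that of Per2 at 96.1, Nr1d1 at 95.1 and Per1 at 94.9, and Per3 lay at 89.8, Tef at 77.4, Cry1 at 76.5, Nr1d2 at 64.5 and Clock at 54.5. Only Cry2, at 19.4, lay below the middle of its peers. These percentiles are descriptions with no test.

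**Figure D1:**
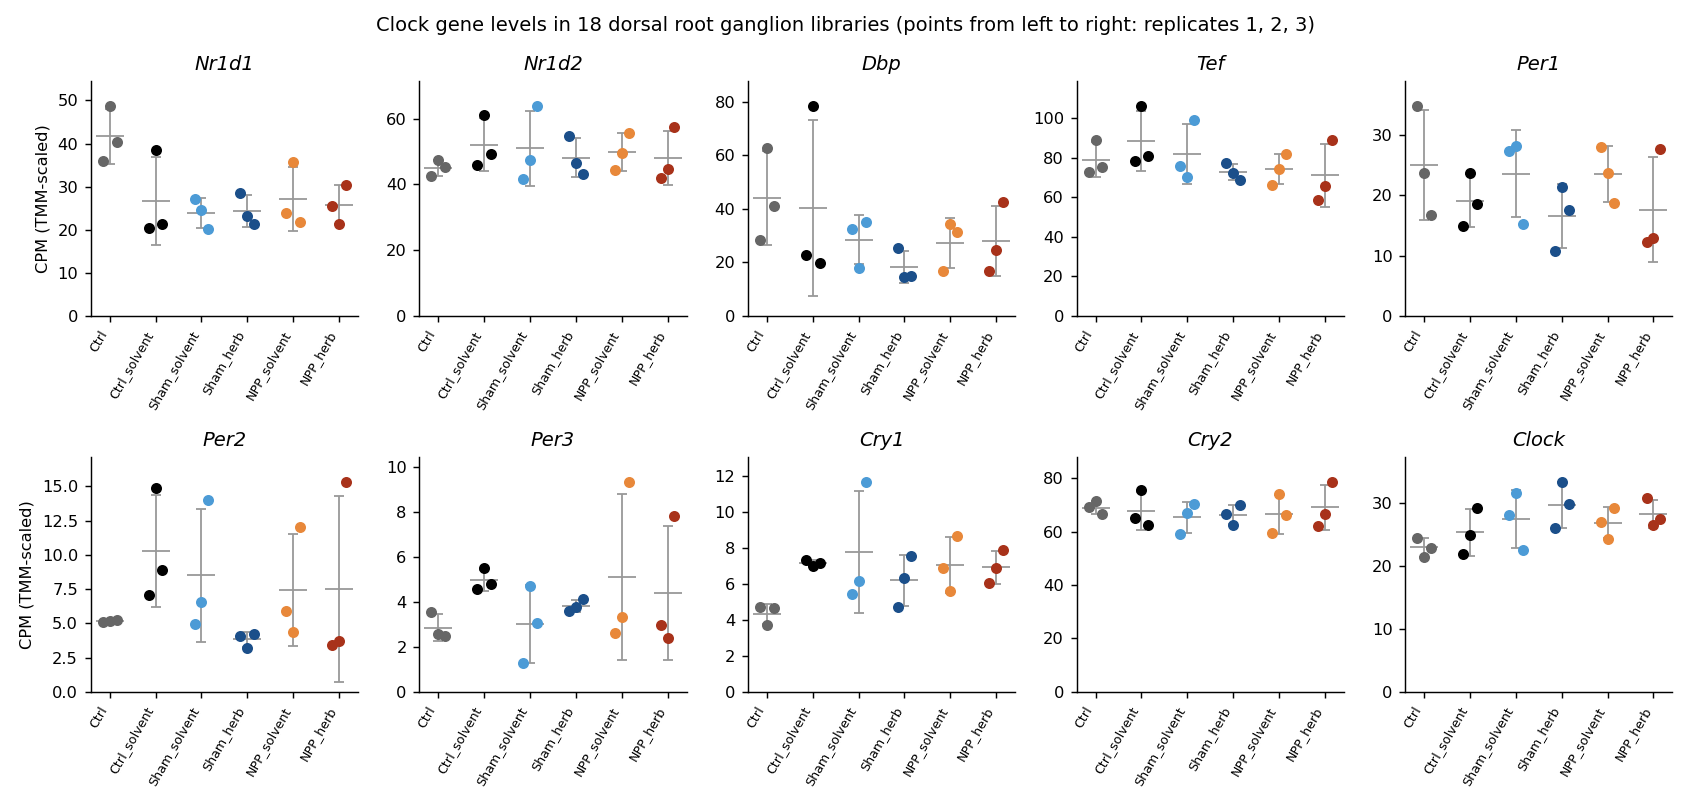
Level of each of the 10 clock genes in CPM on a linear axis, by group, with 1 point per library, a bar at the group mean and whiskers of SD. Dbp and Per2 spread over several-fold within single groups, while Cry2 stays between 59.0 and 78.7 CPM in all 18 libraries.

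Dbp, the D-box binding output gene, varied widely within groups. Its level was 28.3, 62.9 and 41.0 CPM in Ctrl, 22.9, 78.3 and 19.6 in Ctrl_solvent, and 32.4, 18.01 and 34.95 in Sham_solvent. It was 25.3, 14.7 and 14.9 CPM in Sham_herb, 16.7, 34.2 and 31.3 in NPP_solvent, and 16.8, 24.5 and 42.4 in NPP_herb. The single highest and one of the lower libraries both belong to Ctrl_solvent, and all 6 groups overlap in range except that Sham_herb stays below Ctrl. Tef, a relative of Dbp, varied less, from 58.6 CPM in NPP_herb replicate 1 to 106 CPM in Ctrl_solvent replicate 2, the library in which Dbp was also highest.

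Bmal1, the activator whose transcript is repressed by the REV-ERB receptors, ran the other way. Its level was 8.66, 7.03 and 5.91 CPM in Ctrl, 9.90, 5.28 and 14.7 in Ctrl_solvent, and 7.68, 12.4 and 6.32 in Sham_solvent. It was 11.4, 14.4 and 13.9 CPM in Sham_herb, 15.2, 11.3 and 8.24 in NPP_solvent, and 17.3, 9.76 and 6.88 in NPP_herb. Bmal1 was lowest in the library with the most Dbp, Ctrl_solvent replicate 2, and highest in NPP_herb replicate 1, where Dbp stood at 16.8 CPM. Npas2, the paralogue of Clock, was scarce, from 0.0571 CPM in NPP_herb replicate 3 to 1.99 CPM in NPP_herb replicate 1.

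Nr1d1, which encodes the Bmal1 repressor REV-ERB alpha, was highest in untreated controls. Its level was 35.99, 48.6 and 40.4 CPM in Ctrl against 20.3, 38.4 and 21.3 CPM in Ctrl_solvent. Sham_solvent had 27.1, 24.6 and 20.2 CPM, Sham_herb 28.4, 23.2 and 21.3, NPP_solvent 23.8, 35.7 and 21.9, and NPP_herb 25.5, 21.4 and 30.5. The Ctrl libraries lie above every library of the Sham and NPP groups and overlap only Ctrl_solvent, through its replicate 2. Nr1d2, which encodes REV-ERB beta, showed no such order, with 41.6 to 63.8 CPM over the 18 libraries and group means between 45.05 ± 2.47 (SD, n = 3) in Ctrl and 52.1 ± 7.96 (SD, n = 3) in Ctrl_solvent.

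Cry1, the repressor that acts late in the cycle, had its lowest values in the same Ctrl group. It stood at 4.68, 3.69 and 4.64 CPM in Ctrl and at 7.30, 7.01 and 7.17 in Ctrl_solvent. Sham_solvent had 5.45, 6.17 and 11.7 CPM, Sham_herb 4.71, 6.30 and 7.52, NPP_solvent 6.85, 5.58 and 8.67, and NPP_herb 6.02, 6.86 and 7.85. Every Ctrl library lies below every other library, though Sham_herb replicate 1, at 4.71 CPM, is close to the highest of them, at 4.68. Cry2 did not separate any pair of groups, and its group means ran from 65.4 ± 5.80 (SD, n = 3) in Sham_solvent to 69.1 ± 8.55 (SD, n = 3) in NPP_herb.

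Per2, the Period gene with the E-box variant and the D-box shown above, was carried by single high libraries in several groups. It was 5.08, 5.19 and 5.26 CPM in Ctrl, 7.09, 14.9 and 8.88 in Ctrl_solvent, and 4.92, 6.58 and 14.0 in Sham_solvent. It was 4.08, 3.23 and 4.22 CPM in Sham_herb, 5.91, 4.34 and 12.0 in NPP_solvent, and 3.39, 3.74 and 15.3 in NPP_herb. In Sham_solvent, NPP_solvent and NPP_herb the high library is replicate 3, and in Ctrl_solvent it is replicate 2. Per3 was also high in NPP_solvent replicate 3, at 9.35 CPM, and in NPP_herb replicate 3, at 7.85 CPM, but not in Sham_solvent replicate 3, at 3.07 CPM, and its other 15 libraries lay between 1.26 and 5.49 CPM. Per1, which responds to glucocorticoids and to neuronal activity as well as to the clock, ran from 10.8 CPM in Sham_herb replicate 1 to 34.8 CPM in Ctrl replicate 1. Clock, the constitutive partner of Bmal1, ran only from 21.4 to 33.3 CPM.

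The test of any difference among the 6 groups called none of the 10 genes at an adjusted p under 0.05 (edgeR quasi-likelihood F test). The background was 0% of the 17043 genes tested, and 10.2% of them had an unadjusted p under 0.05. DESeq2, which called 475 genes here, and limma on log2 FPKM, which called 0, likewise called none of the 10 here or in the comparisons below. Of the 10 clock genes 1 had an unadjusted edgeR p under 0.05. That gene was Nr1d1, with an adjusted edgeR p of 0.439, followed by Cry1 with 0.509 and Clock with 0.594. Without Ctrl replicates 2 and 3, the adjusted edgeR p of Nr1d1 was 0.928 and that of Cry1 0.919, and without Ctrl replicate 2 alone they were 0.786 and 0.788. The share of a gene's variance on log2 CPM that lay between groups was 52.6% for Nr1d1, 49.4% for Cry1 and 41.7% for Clock, and from 7.0% for Cry2 to 35.6% for Per2 in the other 7, beside a median of 34.3% over all genes.

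Solvent alone was compared with no treatment in control animals. Reads of Eif2s3y numbered 1 and 0 in Ctrl replicates 2 and 3 and 2373 to 4411 in Ctrl_solvent. Those Ctrl libraries thus differ from Ctrl_solvent in Y-linked reads as well as in solvent, and these cannot be told apart in them. Cry1 differed by 0.72 ± 0.26 (SE) on the log2 scale in Ctrl_solvent, with an adjusted edgeR p of 0.236. Nr1d1 differed by -0.64 ± 0.24 (SE), with an adjusted edgeR p of 0.258. Per2 differed by 1.00 ± 0.55 (SE), with an adjusted edgeR p of 0.472. None of the 10 was called at adjusted p under 0.05, as for all genes (0%), and 2 of 10 had an unadjusted p under 0.05 beside 13% of all genes, of which DESeq2 called 471. The 2 groups did not overlap in Cry1, Per2 and Per3, 3 of the 10, beside 16.6% of all genes. Over the 10 genes the median difference was 0.15, from -0.64 to 1.00, with 6 higher and 4 lower, beside a median of 0.0063 over all genes. Leaving out Ctrl_solvent replicate 2, the library with the most Dbp, Nr1d1 was called, at -1.001 ± 0.22 (SE) with an adjusted edgeR p of 0.0147, in a comparison where 717 genes then passed. Without Ctrl replicates 2 and 3 the difference was 0.61 for Cry1 (edgeR adjusted p = 0.951), -0.43 for Nr1d1 (edgeR adjusted p = 0.959) and 1.02 for Per2 (edgeR adjusted p = 0.961), with 1 Ctrl library left and its spread assumed to be like that of the other groups. Macrophage markers were higher in some Ctrl_solvent libraries, though the groups overlapped. Their summed level over 10 genes was 194 to 434 CPM in Ctrl and 378 to 1354 CPM in Ctrl_solvent, with a median of 1336 CPM in the latter. Over all libraries a score of these markers had r = -0.434 with Nr1d1, 0.293 with Cry1 and 0.079 with Per2. It was past the threshold of adjusted permutation p with none of the 10 clock genes. The part of these markers in the clock gene values was not tested.

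The pain model was read as NPP_solvent against Sham_solvent. No clock gene was called, as for all genes (0%), and none had an unadjusted edgeR p under 0.05, beside 5.67% of all genes. Per3 differed by 0.74 ± 0.50 (SE, edgeR adjusted p = 0.760), Tef by -0.14 ± 0.16 (SE, edgeR adjusted p = 0.831) and Nr1d1 by 0.18 ± 0.24 (SE, edgeR adjusted p = 0.851). Each of these 3 changed sign when 1 library was left out. Per3 was then -0.054 without NPP_solvent replicate 3, Tef 0.022 without Sham_solvent replicate 3 and Nr1d1 -0.066 without NPP_solvent replicate 2. The median over the 10 genes was -0.03, from -0.19 to 0.74, with 3 higher and 7 lower, beside a median of 0.01 over all genes, and no gene separated the groups (background 8.11%). With the decoction in both arms, NPP_herb against Sham_herb, Per2 differed by 0.99 ± 0.55 (SE), a value of -0.10 without NPP_herb replicate 3. Dbp differed by 0.62 ± 0.54 (SE) and Cry1 by 0.17 ± 0.26 (SE). Here too none was called (background 0%) or had an unadjusted p under 0.05 (background 1.4%), none separated the groups (background 7.35%), and the median was 0.09, from -0.07 to 0.99, beside -0.0033 over all genes.

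The decoction was compared with solvent in each arm. In the Sham arm Per2 differed most, by -1.14 ± 0.55 (SE), with an adjusted edgeR p of 0.491. It was the 1 gene of the 10 whose groups did not overlap, beside 14.6% of all genes, and without Sham_solvent replicate 3 its difference was -0.59. Per1 differed by -0.51 ± 0.36 (SE, edgeR adjusted p = 0.574) and Cry1 by -0.33 ± 0.25 (SE, edgeR adjusted p = 0.607), the latter 0.09 without Sham_solvent replicate 3. None of the 10 was called (background 0%) or had an unadjusted p under 0.05 (background 9.89%), and their median was -0.13, from -1.14 to 0.32, beside 0.0053 over all genes. In the NPP arm Per1 differed most, by -0.40 ± 0.36 (SE), with Clock at 0.07 ± 0.14 (SE) and Cry2 at 0.05 ± 0.11 (SE). The median was -0.04, from -0.40 to 0.07, beside -0.0074 over all genes, with none called (background 0%), none with an unadjusted p under 0.05 (background 1.87%) and no separated groups (background 5.3%). The effect of the decoction in the NPP arm minus that in the Sham arm was 1.17 ± 0.77 (SE) for Per2, 0.67 ± 0.76 (SE) for Dbp and 0.30 ± 0.36 (SE) for Cry1, each with an adjusted edgeR p of 0.920, and none of the 10 had an unadjusted p under 0.05 (background 3.4%) or was called (background 0%). Without NPP_herb replicate 3 the Per2 value was 0.09, and without Sham_solvent replicate 3 the Cry1 value was -0.11. These comparisons share their solvent and herb libraries, so they are not separate evidence.

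Sham_solvent against Ctrl_solvent gave no call among the 10 genes (background 0%) and no unadjusted p under 0.05 (background 6.12%). Per3 differed by -0.70 ± 0.50 (SE, edgeR adjusted p = 0.914), Dbp by -0.51 ± 0.54 (SE, edgeR adjusted p = 0.947) and Per1 by 0.30 ± 0.36 (SE, edgeR adjusted p = 0.954). The Dbp difference rested on Ctrl_solvent replicate 2 and was 0.42 without it. No gene separated these groups (background 7.14%), and the median was -0.08, from -0.70 to 0.30, beside -0.0073 over all genes.

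No comparison of groups called a clock gene with all libraries in, and the genes were next compared from library to library. Of the 10, 7 had an adjusted permutation p under 0.05 for their r with Bmal1, the smallest at a size of 0.505, which 17.7% of all tested genes reached or passed. Over the 18 libraries Dbp was lower where Bmal1 was higher, with Pearson r = -0.893 and Spearman rho = -0.901 on log2 CPM, adjusted permutation p = 0.0001 for both, the smallest that 100000 resamples and adjustment over 10 genes can give. With the 2 libraries farthest from the Bmal1 median left out r was -0.867, and after each group's mean was removed it was -0.883. Leaving out each library in turn gave -0.915 to -0.872, and leaving out Ctrl replicates 2 and 3 together gave -0.902. Tef followed, with r = -0.758 (adjusted permutation p = 0.00085) and rho = -0.697 (adjusted permutation p = 0.00875). Clock, the partner of Bmal1, went with it, at r = 0.629 (adjusted permutation p = 0.0195) and rho = 0.608 (adjusted permutation p = 0.029). Its r was 0.499 with each group's mean removed (adjusted permutation p = 0.0594). That p is if anything too small, since deviations within a group sum to 0 and were shuffled freely over all libraries. Without the 2 farthest libraries the r of Clock was 0.604 (adjusted permutation p = 0.0498) with an adjusted permutation p of 0.0857 for rho, so its call depends on the setting. The rho of Tef, too, had an adjusted permutation p of 0.0857 without those 2 libraries, with r = -0.618. Per2 had r = -0.573, Cry2 -0.539, Nr1d2 -0.506 and Nr1d1 -0.505, each with an adjusted permutation p between 0.0352 and 0.048, but their rho had adjusted permutation p between 0.0546 and 0.139. The threshold was lost for all 4 without the 2 farthest libraries, where r was -0.411 for Per2, -0.398 for Cry2, -0.320 for Nr1d2 and -0.452 for Nr1d1, and also without TMM scaling. With each group's mean removed r was -0.666 for Per2, -0.616 for Cry2, -0.719 for Nr1d2 and -0.402 for Nr1d1. Nr1d1 was not past the threshold there, and none is read for the other 3, since that permutation p is too small. With the gene length slope of each library regressed out r was -0.648 for Per2, -0.623 for Cry2, -0.628 for Nr1d2 and -0.481 for Nr1d1, past the threshold for the first 3. Per1 with r = -0.182, Per3 with -0.033 and Cry1 with -0.002 had no relation to Bmal1 that the test could tell from 0, and the sign of the last 2 turned without TMM scaling.

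**Figure D2:**
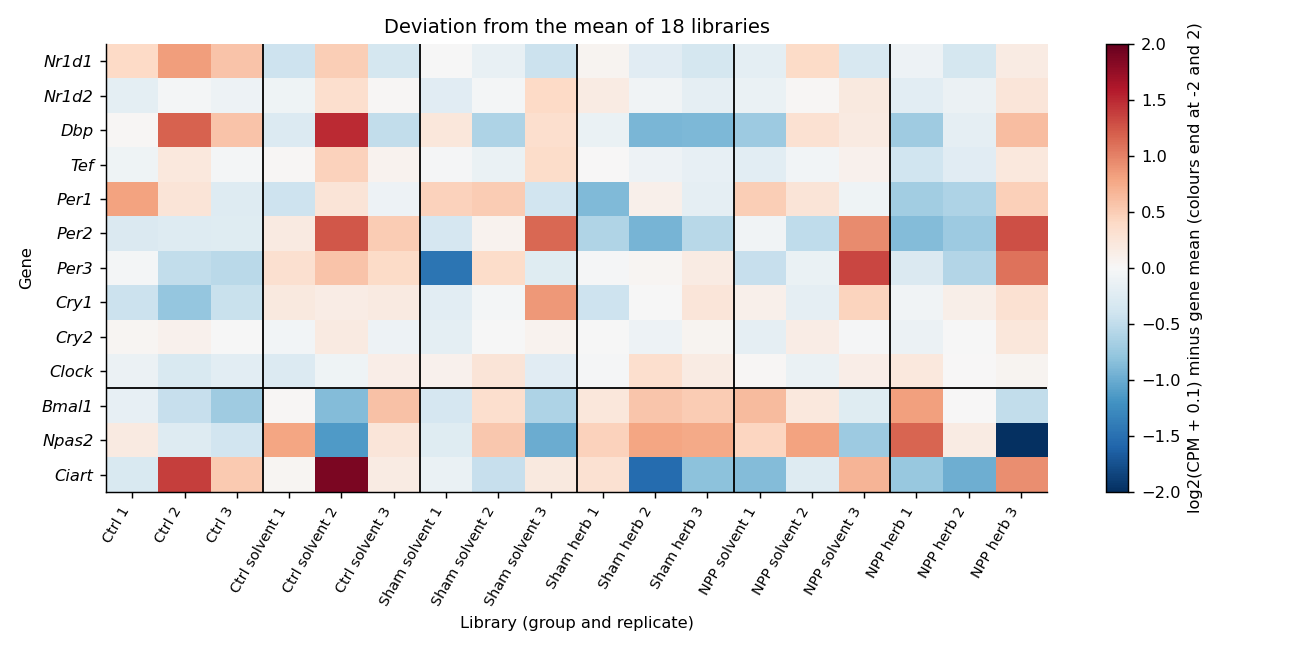
Log2 CPM of the clock genes minus each gene's mean over the 18 libraries, with libraries in columns by group and genes in rows. Dbp and Bmal1 take opposite colours in most columns, and libraries of 1 group differ in both.

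The 10 genes were then compared with each other in 45 pairs. Of these, 33 had a positive r, beside 49.9% of all pairs of tested genes. The median r was 0.226, and 12 pairs had an adjusted permutation p under 0.05, 10 of them positive. The smallest of these 12 had an r of size 0.58, which 9.73% of all pairs of tested genes reached or passed, and 33 of the 45 pairs were not past the threshold. Per1 passed with none of the other members. The strongest joined Tef, Nr1d2, Per2 and Dbp. Nr1d2 and Tef had r = 0.816 (adjusted permutation p = 0.0018, rho 0.756), Per2 and Tef 0.789 (adjusted permutation p = 0.00315, rho 0.723), and Dbp and Tef 0.771 (adjusted permutation p = 0.00369, rho 0.746). Without the 2 libraries farthest from the median of the first gene, r was 0.652, 0.699 and 0.625, and within groups it was 0.909, 0.826 and 0.863. Per2 and Nr1d2 had r = 0.779 (adjusted permutation p = 0.00369) but rho = 0.614 (adjusted permutation p = 0.0574) and an r of 0.672 without the 2 libraries farthest in Per2, and the 4 libraries with Per2 from 12.0 to 15.3 CPM are those with the highest Nr1d2, 55.7 to 63.8 CPM.

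The REV-ERB gene Nr1d1 and the repressor gene Cry1 went in opposite directions, with r = -0.730 (adjusted permutation p = 0.00369) and rho = -0.730 (adjusted permutation p = 0.0123). The r was -0.601 without the 2 libraries farthest from the Cry1 median, -0.556 without those farthest from the Nr1d1 median, which are Ctrl replicates 2 and 3, and -0.538 within groups. Nr1d1 was higher where Dbp was higher (r = 0.716, adjusted permutation p = 0.006, rho 0.579) and had r = -0.037 with Per2, while Per2 and Cry1 had r = 0.594 (adjusted permutation p = 0.0376, rho 0.519). Dbp and Clock had r = -0.649 (adjusted permutation p = 0.0255, rho -0.666). Without the 2 libraries farthest from the median of the first gene, r was 0.605 for Nr1d1 with Dbp, 0.606 for Per2 with Cry1 and -0.619 for Dbp with Clock. Without those farthest from the median of the second gene, r was 0.531, 0.549 and -0.502 in the same order. Within groups it was 0.721, 0.637 and -0.478. The adjusted permutation p of rho was 0.0621, 0.0941 and 0.0284 for these 3 pairs, and 0.0123 for each of the 3 Tef pairs given above.

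**Figure D3:**
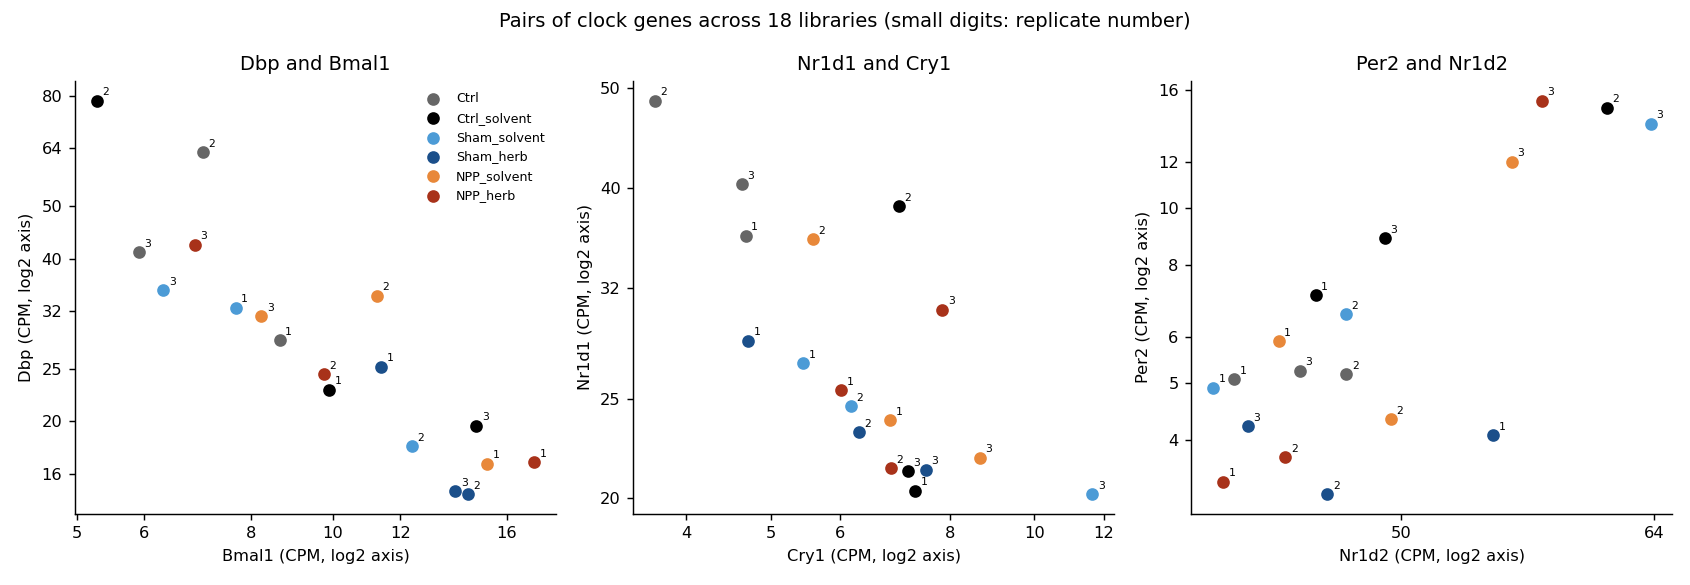
Dbp against Bmal1, Nr1d1 against Cry1 and Per2 against Nr1d2, in CPM on log2 axes with 1 point per library, coloured by group and marked with its replicate number. The first 2 panels slope downward and the third upward, and in the first the 3 libraries of Ctrl_solvent lie from one end nearly to the other.

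**Figure D4:**
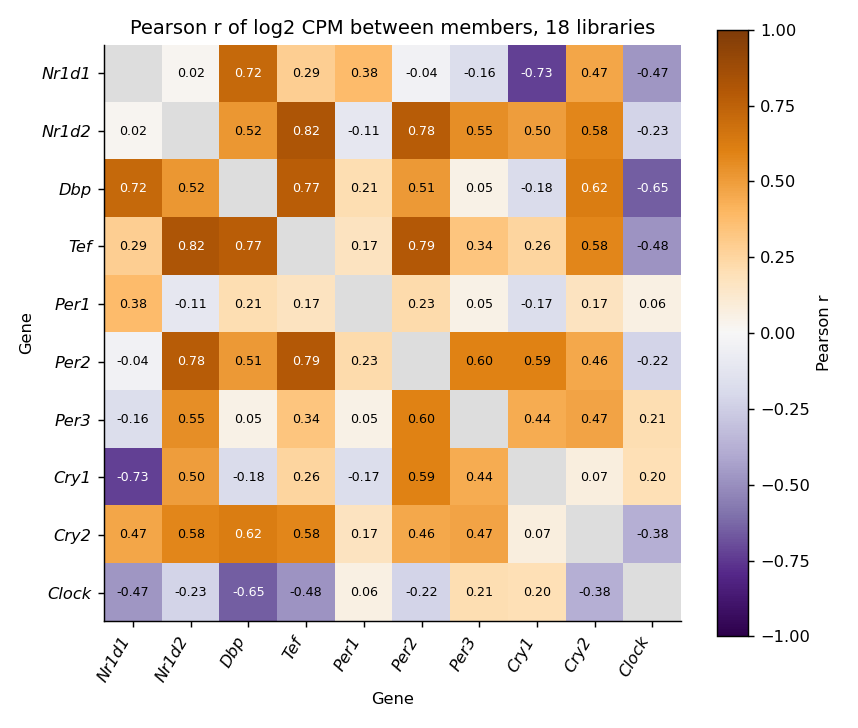
Pearson r between the log2 CPM of each pair of the 10 clock genes over 18 libraries. Dbp, Tef, Nr1d2 and Cry2 form a positive block, and the lowest value is -0.73 for Cry1 with Nr1d1.

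A ratio of 2 clock genes within a library does not depend on library scaling beyond the small prior count. Only its differences between libraries are read, since its 0 depends on gene length. These differences can carry a length effect too. The change of log2 CPM per 10-fold gene length ran from -0.567 in Sham_solvent replicate 1 to 0.426 in NPP_solvent replicate 3. Implied lengths were 1856 bases for Dbp and 5259 bases for Bmal1. The part of gene length in the ratios was not tested. The log2 ratio of Dbp to Bmal1 was 1.70, 3.15 and 2.78 in Ctrl, 1.20, 3.87 and 0.41 in Ctrl_solvent, and 2.07, 0.54 and 2.46 in Sham_solvent. It was 1.14, 0.03 and 0.09 in Sham_herb, 0.14, 1.59 and 1.92 in NPP_solvent, and -0.04, 1.32 and 2.61 in NPP_herb. The ratio thus spanned 3.91 log2 units, and 3.46 of these lay within Ctrl_solvent. The log2 ratio of Per2 to Nr1d1, which peak at different times of the cycle, was -2.81, -3.21 and -2.93 in Ctrl and -1.51, -1.36 and -1.25 in Ctrl_solvent. Sham_solvent had -2.44, -1.89 and -0.53, Sham_herb -2.78, -2.82 and -2.32, NPP_solvent -1.999, -3.02 and -0.86, and NPP_herb -2.89, -2.50 and -0.99. In this ratio Ctrl and Ctrl_solvent were each tight and lay apart, at -2.98 ± 0.21 (SD, n = 3) and -1.38 ± 0.13 (SD, n = 3), while the first ratio spread widely within Ctrl_solvent. The hour of tissue collection is not given, so a difference in time of day between libraries and any other source of these ratios cannot be told apart.

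**Figure D5:**
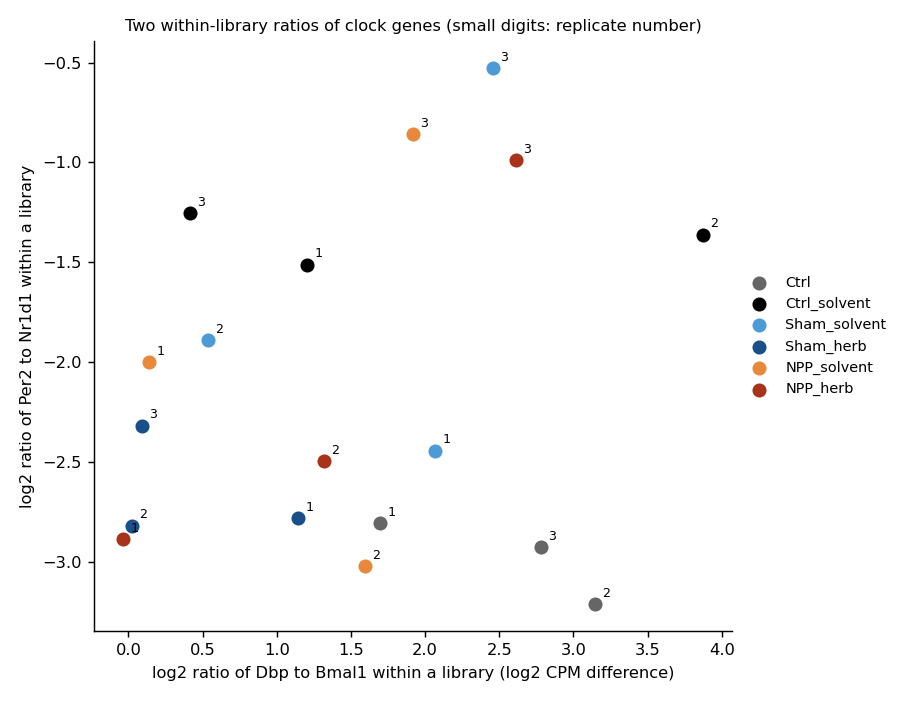
Log2 ratio of Dbp to Bmal1 (horizontal) against log2 ratio of Per2 to Nr1d1 (vertical) within each of the 18 libraries, coloured by group and marked with the replicate number. Ctrl sits low, Ctrl_solvent is level in height but runs from 0.41 to 3.87 across, and replicate 3 of Sham_solvent, NPP_solvent and NPP_herb lies at the top.

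The replicate numbers in the labels are not stated to mark a day or a batch. A term for the replicate number, added to the model, called none of the 10 genes (background 0%). An unadjusted edgeR p under 0.05 was found for 2 of 10, Cry1 and Per2, beside 3.85% of all genes, and both had an adjusted edgeR p of 0.958. Replicate 3 exceeded replicate 1 by 0.92 on the log2 scale in Per2, by 0.72 in Per3 and by 0.41 in Cry1.

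The other clock genes came from a list of 22, of which 21 had enough reads. None was called in any comparison (edgeR, adjusted p under 0.05). Unadjusted p under 0.05 was reached by 1 of 21 for any group (10.2% of all genes), 4 for NPP_solvent against Sham_solvent (5.67%), 0 for NPP_herb against Sham_herb (1.4%) and 2 for the decoction in the NPP arm (1.87%). It was reached by 3 of 21 for the decoction in the Sham arm (9.89%), 5 for Sham_solvent against Ctrl_solvent (6.12%), 2 for Ctrl_solvent against Ctrl (13%), 4 for the difference of the effects of herb in the 2 arms (3.4%) and 1 for the replicate number (3.85%). Their median log2 difference lay between -0.15 and 0.21 in these comparisons. Hlf, the third PAR bZIP gene, differed between NPP_solvent and Sham_solvent by -0.87 ± 0.31 (SE, edgeR adjusted p = 0.755). In the herb groups it stood at 5.11, 4.96 and 4.94 CPM in NPP_herb against 3.03, 2.53 and 3.86 CPM in NPP_solvent, and at 3.18, 4.52 and 3.24 CPM in Sham_herb against 5.69, 3.06 and 8.54 CPM in Sham_solvent. For Hlf the effect in the NPP arm minus that in the Sham arm was 1.32 ± 0.44 (SE, edgeR adjusted p = 0.920). Nfil3, which encodes a repressor that competes at D-boxes, differed by -0.77 ± 0.32 (SE, edgeR adjusted p = 0.491) with the decoction in the Sham arm. Bhlhe40 and Bhlhe41, which encode E-box repressors, ran from 4.39 to 11.9 CPM and from 33.0 to 52.9 CPM, and Bhlhe40 differed by -0.53 ± 0.23 (SE, edgeR adjusted p = 0.744) between Sham_solvent and Ctrl_solvent.

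Among 13296 genes with a symbol and a mean of at least 1 CPM, those whose log2 CPM was most like that of Dbp over the 18 libraries were Ciart, with r = 0.884, Rangap1 with 0.830, Aaas with 0.826, Vstm5 with 0.824 and Eef1a2 with 0.823. The lowest r were those of Fzd8, -0.899, Bmal1, -0.893, Spop, -0.875, Phkb, -0.869, and Tns3, -0.854. The order depends on the libraries used. Without the 2 libraries farthest from the Dbp median, r was 0.775 for Ciart, 0.814 for Rangap1 and 0.796 for Vstm5. It was -0.831 for Fzd8 and -0.897 for Bmal1. Within groups Ciart had 0.872 and Rangap1 0.924, and Fzd8 had -0.858 and Bmal1 -0.883. Ciart, whose E-boxes are printed above, had 1.22, 4.12 and 2.22 CPM in Ctrl and 1.57, 5.84 and 1.71 CPM in Ctrl_solvent, in the same order as Dbp within Ctrl. Over all 18 libraries it ran from 0.455 CPM in Sham_herb replicate 2, the library with the least Dbp, to 5.84 CPM in Ctrl_solvent replicate 2, the library with the most.

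Cell and library measures that moved with the clock genes were sought in 130 relations, each of the 10 genes with 13 measures. An adjusted permutation p under 0.05 on r was reached by 3 of them. Tef had r = -0.739 with the satellite glia marker score (adjusted permutation p = 0.0251, rho -0.779, without the 2 farthest libraries -0.756). Dbp had r = 0.732 with the red cell marker score (adjusted permutation p = 0.0251, rho 0.682, without the 2 farthest libraries 0.736), a list whose summed level ran from 5.599 CPM in Ctrl_solvent replicate 3 to 801 CPM in Sham_solvent replicate 3. Within groups the r with this score was 0.861 for Dbp, 0.877 for Tef, 0.718 for Nr1d2, 0.642 for Cry2 and 0.638 for Per2. For the remaining clock genes it ran from -0.378 for Clock to 0.481 for Nr1d1. The relation was thus not confined to Dbp. Per3 had r = 0.724 with the gene length slope of a library, the change of log2 CPM per 10-fold gene length (adjusted permutation p = 0.0251, rho 0.550). That r was 0.475 without the 2 farthest libraries and 0.820 within groups, so its size depends on the setting. The adjusted permutation p of rho was 0.0156 for Tef with satellite glia, 0.0446 for Dbp with red cells and 0.214 for Per3 with the length slope. The sensory neuron score had r = 0.688 with Dbp and 0.682 with Nr1d1, both with an adjusted permutation p of 0.0523, and its rho was 0.779 with Dbp and 0.701 with Nr1d1, with adjusted permutation p of 0.0156 and 0.0393. On rho alone 3 more relations passed. These were Cry2 with the sensory neuron score (rho 0.721, adjusted permutation p = 0.0393, r 0.623), Nr1d2 with the satellite glia score (rho -0.717, adjusted permutation p = 0.0393, r -0.638) and Clock with the length slope (rho 0.684, adjusted permutation p = 0.0446, r 0.595). Per1 had r = 0.575 with the score of glucocorticoid-responsive genes (adjusted permutation p = 0.141). The part of these measures in the clock gene values was not tested, except that with the gene length slope regressed out the r of Dbp with Bmal1 was -0.88.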

How the data were processed

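Messenger RNA of 18 libraries was sequenced. The submitters' processing notes name HISAT2, DESeq2 and the build mRatBN7.2, with no versions. The sources used here name no read counter, strand setting or annotation. A deposited table gives read counts for each gene, with no scaling by the authors. The deposited FPKM table was scaled to gene length and library size by the authors. It was used for levels per length, implied gene lengths and an alternative.

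Genes with few reads were removed with filterByExpr in edgeR 4.0.16 (R 4.3.3), which left 17043 of 25678 genes. Libraries were scaled by TMM. The edgeR quasi-likelihood F test was run in 1 model of 18 libraries with 12 residual degrees of freedom, adjusted by Benjamini-Hochberg over all genes tested. Log2 CPM has a prior count of 2. Correlations over libraries have 2-sided permutation p from 100000 resamples, adjusted over the 10 genes, 45 pairs or 130 relations. The model was tested on simulated counts. No 2 libraries of a group agreed within sampling noise (smallest chi-square per degree of freedom 12.2).

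The members and lists were chosen with earlier results of these data known. Named genes followed a rule: all 10 members, in each comparison the 3 members with the smallest p, the other clock genes Bmal1, Npas2, Hlf, Nfil3, Bhlhe40, Bhlhe41 and Ciart, and the 5 highest and 5 lowest r with Dbp. Hlf, Nfil3 and Bhlhe40 are given for the comparisons where their unadjusted p was under 0.05, chosen after their values were seen. Alternatives were DESeq2 1.42.0, no filter, limma 3.58.1 on log2(FPKM + 0.1), a replicate block, only the 6 libraries compared, and each library left out. Further settings, the gene length slope and leaving out Ctrl replicates 2 and 3 together, were added after seeing the data.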

Additional observations from a re-analysis of the deposited data

How the results depend on the processing

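The differences of the named clock genes kept direction and side of the threshold in 105 of 105 alternatives that kept all libraries. With 1 library left out, 134 of 144 did, 9 reversed and 1, Nr1d1 in Ctrl_solvent against Ctrl, became called (-1.001 without Ctrl_solvent replicate 2). The values then ran for NPP_solvent against Sham_solvent from -0.054 to 1.22 in Per3, -0.255 to 0.022 in Tef and -0.066 to 0.298 in Nr1d1, for the decoction in the NPP arm from -0.042 to 0.138 in Cry2 (also -0.0199 without NPP_solvent replicate 1), for the decoction in the Sham arm from -0.528 to 0.086 in Cry1, for NPP_herb against Sham_herb from -0.105 to 1.33 in Per2, for Sham_solvent against Ctrl_solvent from -0.820 to 0.418 in Dbp and for the difference of herb effects from -0.110 to 0.510 in Cry1. The cause was not tested.

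Genes called at adjusted p under 0.05, 0 in each comparison by edgeR, numbered with DESeq2 475 for any group, 471 for Ctrl_solvent against Ctrl, 35 for Sham_solvent against Ctrl_solvent, 1 for the decoction in the NPP arm, 2 for NPP_herb against Sham_herb, 3 for the difference of herb effects, 5 for the replicate number and 0 for the others. Ctrl_solvent against Ctrl gave 1 without the filter and 1 with limma. With 1 library left out the counts ran from 0 to 305 for any group, 0 to 717 for Ctrl_solvent against Ctrl, 0 to 241 for Sham_solvent against Ctrl_solvent (each highest without Ctrl_solvent replicate 2), 0 to 485 for the decoction in the Sham arm (highest without Sham_solvent replicate 2), 0 to 2 for NPP_herb against Sham_herb, 0 to 1 for the difference of herb effects and 0 to 1 for the replicate number. The cause was not tested.

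For r with Bmal1, Dbp and Tef kept direction in each alternative, and the threshold of r in each alternative with the group means left in. Without TMM scaling Per2 had -0.522, Cry2 -0.383, Nr1d1 -0.482 and Nr1d2 -0.388, no longer past the threshold, and Per3 0.027 and Cry1 0.044, with the sign turned. With log2 FPKM they were -0.521, -0.388, -0.481, -0.391, 0.0019 and 0.038. With group means removed Nr1d1 had -0.402 and Clock 0.499, both no longer past the threshold, and Per1 0.024. Per2 had -0.666, Nr1d2 -0.719, Cry2 -0.616 and Tef -0.835 there, with no threshold read because that permutation p is too small. Without the 2 farthest libraries Per2 had -0.411, Cry2 -0.398, Nr1d1 -0.452 and Nr1d2 -0.320, no longer past the threshold, and Per1 0.0097, Per3 0.123 and Cry1 0.065. In settings added after seeing the data Nr1d1 had -0.481 with the length slope regressed out and -0.358 without Ctrl replicates 2 and 3. With each library left out, r ran from -0.660 to -0.480 for Per2, -0.675 to -0.452 for Cry2, -0.641 to -0.431 for Nr1d1, -0.594 to -0.395 for Nr1d2, -0.284 to -0.043 for Per1, -0.155 to 0.076 for Per3, -0.137 to 0.214 for Cry1, 0.588 to 0.681 for Clock and -0.824 to -0.695 for Tef. Of the 180 values of r with 1 library left out, 123 kept direction and threshold, 44 fell short of the threshold and 13 turned sign. Nr1d1 was no longer past the threshold when any single library of Ctrl, Ctrl_solvent or Sham_herb was left out. The same held without Sham_solvent replicate 1 or 2 alone. Without Sham_solvent replicate 3 it stayed past it (r = -0.641, adjusted permutation p = 0.021). Its call thus depended on single libraries of several groups. With log2 FPKM the range of the Dbp to Bmal1 ratio was 3.83 beside 3.91, and that of Per2 to Nr1d1 2.57 beside 2.68. Without TMM scaling the SD of Per2 was 0.74 beside 0.73, and that of Dbp 0.68 beside 0.69. The ranges of the ratios and the SD of each gene moved by less than the SD of the ratio or the SD within groups. Such bounds are too wide to show stability.

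Same-numbered libraries of different groups did not deviate together (median r of 45 pairs 0.0082, 9 over 0.1), and 4 of 18 libraries were most like their own number, so the numbers were not taken as pairs. With the replicate block 0 genes were called in each comparison. Per3, at 0.558 FPKM, and Npas2 have the fewest reads, and 3 libraries a group limit precision.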
